A study of Mus musculus with 27 samples.

Results

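Levels of Acta1, the gene of skeletal muscle α-actin, and of 9 smooth muscle contractile genes (Acta2, Actg2, Myh11, Des, Tagln, Cnn1, Mylk, Lmod1 and Synm) were examined in RNA from scrapings of the mouse colonic epithelium. These 10 genes, of the 46078 gene rows in each count table, were taken by their symbols. They had been chosen on measured values, because Acta1 stood among the genes with the largest differences from vehicle at the highest doses of TCDD and genes of muscle and stroma were also higher there. All 10 were among the 16496 genes left by the filter on low counts. The comparisons of 10 and 30 μg/kg with vehicle are therefore given for these genes as levels and fold changes without a test, and the question asked of the other doses and of the mice within each dose group was whether Acta1 moved in step with the smooth muscle genes or by itself.

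Mammals carry a small family of actin genes whose proteins are nearly identical. Acta1 encodes the actin of the skeletal muscle sarcomere, Acta2 and Actg2 encode the actins of vascular and enteric smooth muscle, Actc1 encodes the cardiac form, and Actb and Actg1 encode the cytoplasmic actins found in every cell. In the colon, smooth muscle forms the muscularis mucosae directly below the mucosa and the circular and longitudinal layers farther out, so a scraping of the epithelium can carry some of it. TCDD, a chlorinated dioxin, activates the AhR (aryl hydrocarbon receptor). This transcription factor is switched on by its ligands and binds DNA elements with the core GCGTG. Muscle actin genes are classical targets of serum response factor (SRF), which binds a motif known as the CArG box.

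All 27 animals were male C57BL/6 mice, gavaged every 4 days for 28 days (7 gavages) from day 28 of age and studied on day 56. The 9 groups of 3 mice received sesame oil vehicle or 1 of 8 doses of TCDD, namely 0.01, 0.03, 0.1 and 0.3 μg/kg and then 1, 3, 10 and 30 μg/kg, and each mouse gave 1 library. The libraries held between 9305441 and 14371035 counts on genes (median 11651026), and levels are given in CPM, the counts of a gene relative to the library total after scaling by TMM factors. The tissue label was checked with 10 epithelial markers, all of which passed the filter, and their summed level ran from 38600 to 62100 CPM. The summed level of the 10 muscle genes ran from 147 to 1030 CPM. In such bulk samples, fewer muscle cells and less RNA per muscle cell cannot be told apart. The libraries carried 16 index barcodes, and no label names a set or pool. Mice were put in 2 sets by the first or second use of their barcode, taken in order of dose. The first set held all mice given vehicle or up to 0.3 μg/kg together with mouse 41 of the 1 μg/kg group. Mice 43 and 44 of that group and the 9 mice of the 3 highest doses made up the second. The set thus follows the dose, in part because the mice were taken in that order. Whether the sets were separate sequencing pools is not given in the sources used here.

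The regions upstream of Acta1, Acta2 and Cnn1 are shown because Acta1 holds an exact match to the CArG box, Acta2 holds only matches with 1 letter off, and Cnn1 holds the AhR core. The 250 bases before the start site are from RefSeq (GRCm38.p6), at chr8:123894776-123895025 on the minus strand for Acta1, chr19:34255374-34255623 on the minus strand for Acta2 and chr9:22099003-22099252 on the plus strand for Cnn1. Capitals mark the exact CArG box in Acta1 and the core GCGTG, read on the opposite strand, in Cnn1.
Acta1: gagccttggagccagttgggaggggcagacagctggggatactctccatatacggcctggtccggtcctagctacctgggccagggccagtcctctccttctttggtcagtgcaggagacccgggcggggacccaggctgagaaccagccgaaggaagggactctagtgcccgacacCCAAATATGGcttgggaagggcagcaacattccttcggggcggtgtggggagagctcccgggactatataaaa
Acta2: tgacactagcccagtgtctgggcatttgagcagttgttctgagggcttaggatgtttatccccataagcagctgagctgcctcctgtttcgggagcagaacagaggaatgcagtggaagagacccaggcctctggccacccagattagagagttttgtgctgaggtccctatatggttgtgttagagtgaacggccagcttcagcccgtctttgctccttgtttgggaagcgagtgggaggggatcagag
Cnn1: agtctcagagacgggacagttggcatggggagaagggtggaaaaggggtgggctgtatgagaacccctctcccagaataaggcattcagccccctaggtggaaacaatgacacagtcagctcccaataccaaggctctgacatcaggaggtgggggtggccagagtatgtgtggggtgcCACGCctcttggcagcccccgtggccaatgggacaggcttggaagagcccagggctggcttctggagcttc
The motifs were sought on both strands in the window from 250 bases before to 50 bases after the start site, and 7 of the 10 genes had such a window (Acta1, Acta2, Des, Cnn1, Mylk, Lmod1 and Synm). Of all 32851 windows, 1.63% held an exact CArG box and 32.4% held GCGTG. The exact match in Acta1, the only one in the 7 windows, began 73 bases before its start site, and Acta1 held no GCGTG in this window. With up to 1 letter off, a search added after the data were seen, 21.1% of all windows and 4 of the 7 genes held a match. Acta2 then had 2, beginning 84 and 34 bases before its start site, Acta1 had 3, Lmod1 had 2 and Synm had 1. GCGTG was found in Cnn1, Synm and Lmod1, at 2 positions in Lmod1. A match is a run of letters and not a shown site of binding, and the lack of a match concerns only this window.

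Acta1 (ENSMUSG00000031972) lies on chromosome 8 between 123891769 and 123894751 on the minus strand (GRCm38, GENCODE M21), with exons of 1536 bases in all. An annotated gene on the opposite strand, Gm20388, overlaps it and had 0 reads in every mouse. Tagln and Synm overlap Pcsk7 (1546 to 2569 reads) and Ttc23 (115 to 222 reads) on the opposite strand, and whether the counting used strand is not given in the sources used here, so the counts of these 2 members are less certain. Reads with more than 1 alignment made up 30.74 to 37.15% of each table and were not assigned to genes, which could lower the count of an actin. Of the 1534 different 50-base stretches of the Acta1 transcripts, 2.02% also occurred in transcripts of another gene, with 28 of them in Actb and none in Acta2 or Actg2. The shares for Acta2 and Actg2 were 0.326% and 0%, against 37.4% for Actg1. The transcripts of the 3 muscle actins thus differed from each other in every such stretch, although the read length is not given in the sources used here.

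Acta1 was low in the vehicle-treated mice, at 2.56, 4.43 and 4.52 CPM (26 to 46 reads). The levels were 3.42, 5.05 and 5.41 CPM at 0.01 μg/kg and 2.84, 4.00 and 5.20 CPM at 0.03 μg/kg, both overlapping vehicle. At 0.1 μg/kg the mice had 5.25, 6.47 and 6.96 CPM, and at 0.3 μg/kg 4.96, 5.41 and 8.88 CPM. Every mouse at these last 2 doses lay above every vehicle-treated mouse, as did 6.47% and 6.12% of all genes, and the differences were not called (log2 fold change 0.70, SE 0.284, adjusted p = 0.764, and 0.74, SE 0.278, adjusted p = 0.937, edgeR). A difference was called at an adjusted p under 0.05 and at least 1.5-fold, and 0% of the 16496 genes were called at any dose from 0.01 to 0.3 μg/kg by edgeR, while 766 to 1051 genes had an unadjusted p under 0.05 and DESeq2 called 0 to 2.

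At 1 μg/kg the 3 mice had 5.33, 7.85 and 7.92 CPM of Acta1, all above vehicle as for 8.78% of all genes, and the difference was again not called (log2 fold change 0.89, SE 0.279, adjusted p = 0.246). At this dose 0.139% of all genes were called higher and 0.0606% lower.
At 3 μg/kg the mice had 16.1, 18.6 and 19.9 CPM (188 to 240 reads), and no mouse at a lower dose came near these values, the highest being 8.88 CPM. Acta1 rose 4.75-fold over vehicle at this dose (log2 fold change 2.25, SE 0.261, n = 3, adjusted p = 6.14e-05, edgeR), where 0.303% of all genes were called higher and 0.394% lower. The call was kept without any 1 of the 6 mice (log2 fold change 2.03 to 2.39) and with DESeq2. It was lost with the index set as a term (log2 fold change 2.51, adjusted p = 0.0734), a fit in which only the 3 mice at 1 μg/kg tie the sets together. Within the second set, the 3 mice at 3 μg/kg (16.1 to 19.9 CPM) lay above mice 43 and 44 at 1 μg/kg (5.33 and 7.85 CPM).

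The same 3 mice were also compared with the 12 mice at 0.01 to 0.3 μg/kg, a comparison added after the data were seen that uses neither the vehicle-treated mice nor the doses that chose the genes. Acta1 rose 3.49-fold (log2 fold change 1.80, SE 0.173, adjusted p = 1.95e-06, edgeR), where 0.346% of all genes were called higher and 0.158% lower. All 3 mice were above all 12. The 3 were in the second index set and the 12 in the first. Dose and set therefore cannot be told apart here or in later comparisons with these 12 mice. In an exact permutation test of the 455 arrangements, two-sided, the difference of 1.80 in mean log2 CPM gave p = 0.0044, the smallest that this test can give.

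At 10 μg/kg the mice had 50.3, 68.9 and 81.2 CPM of Acta1, and at 30 μg/kg they had 116, 147 and 162 CPM (1619 to 1942 reads). These levels, on which Acta1 was chosen, were 17.4-fold (log2 fold change 4.12, SE 0.258) and 37.0-fold (5.21, SE 0.264) those of vehicle. None of the 3 highest dose groups overlapped another. Within the second index set, Acta1 was 3.66-fold higher at 10 than at 3 μg/kg and 2.13-fold higher at 30 than at 10 μg/kg. Per kilobase of exon, mean Acta1 went from 2.50 CPM in vehicle to 92.4 CPM at 30 μg/kg. Acta2 went from 5.32 to 24.2 CPM per kilobase over the same doses, so Acta1 lay below Acta2 in vehicle and above it at 30 μg/kg.

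**Figure D1:**
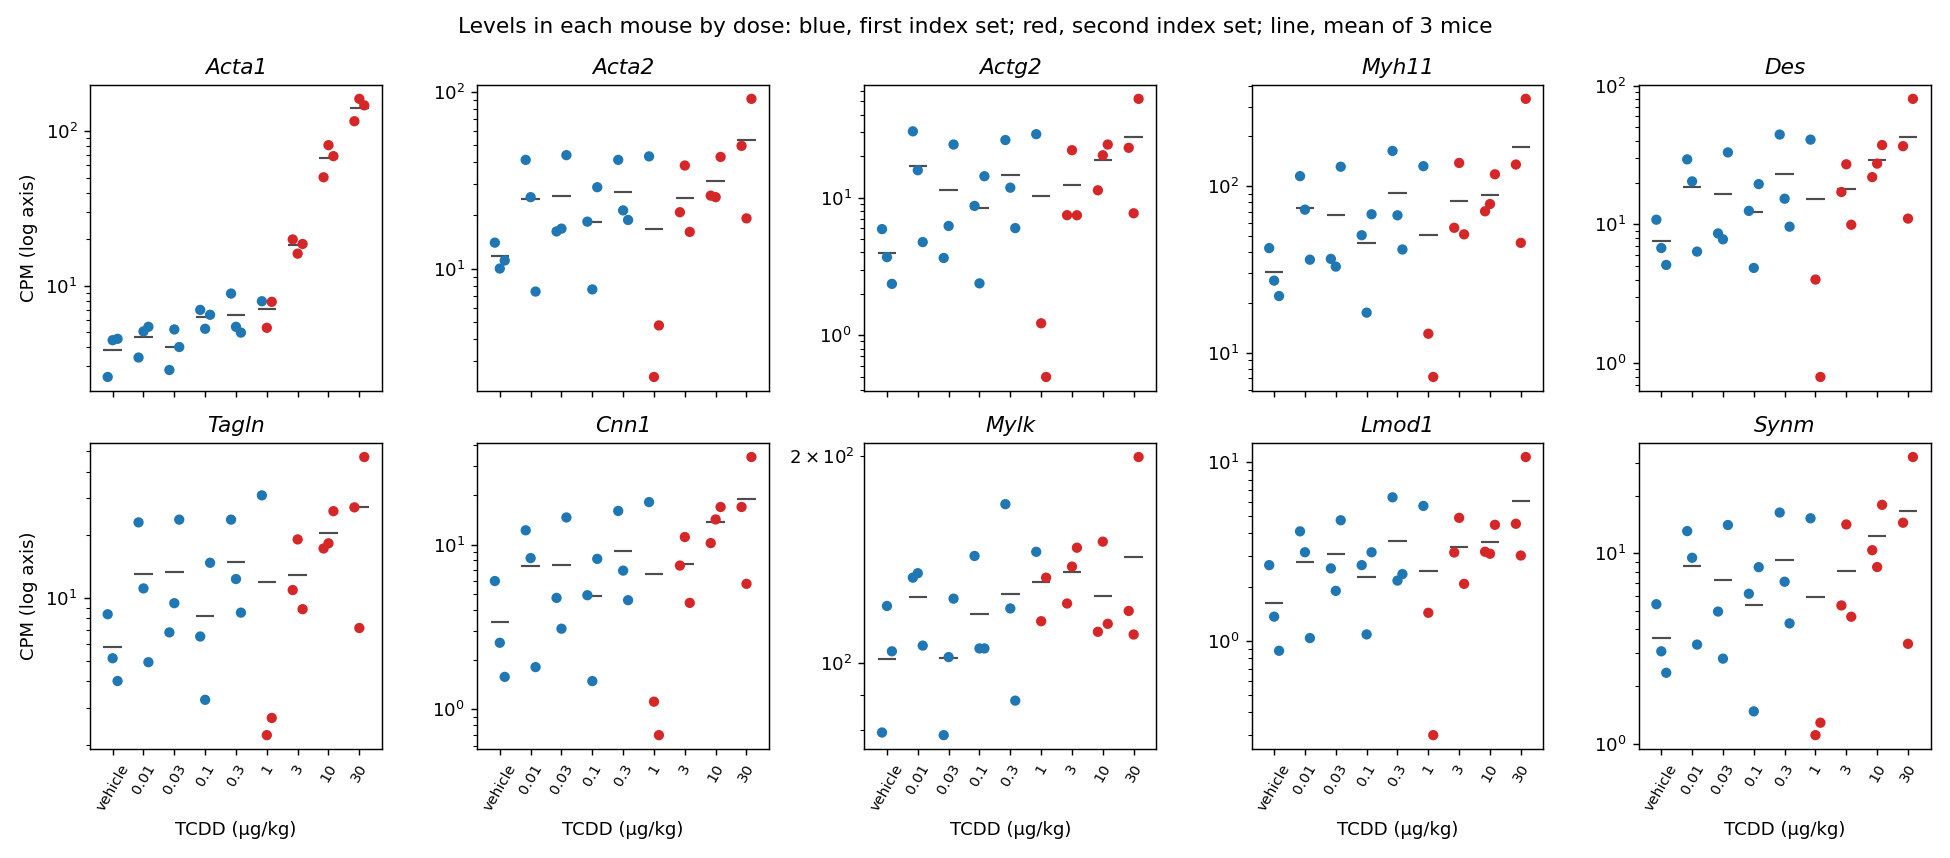
CPM of the 10 genes on a log axis in each of the 27 mice by dose of TCDD (μg/kg), with 1 point per mouse, coloured by index set, and a line at the mean of the 3 mice. Acta1 climbed in separate steps from 3 μg/kg up to between 116 and 162 CPM at 30 μg/kg, while the other 9 genes spread widely within most doses, with mice 43 and 44 at 1 μg/kg the lowest in all of them but Mylk and Lmod1.

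The smooth muscle actins did not follow this course. Acta2, the actin of vascular and other smooth muscle, had 10.0, 11.1 and 14 CPM in vehicle, 16.1, 20.8 and 38.2 CPM at 3 μg/kg and 19.2, 49.3 and 90.9 CPM at 30 μg/kg. Its mice at 1 μg/kg spanned 2.44 to 43 CPM, and its mice at 0.01 μg/kg already spanned 7.41 to 41.1 CPM. The mice at 3 μg/kg overlapped those at 0.01, 0.03, 0.1 and 0.3 μg/kg. Actg2, the enteric smooth muscle actin, had 2.36, 3.69 and 5.90 CPM in vehicle, 7.44, 7.45 and 22.1 CPM at 3 μg/kg and 7.69, 23.0 and 52.2 CPM at 30 μg/kg. At 1 μg/kg it went from 0.497 CPM (5 reads, mouse 44) to 28.9 CPM (mouse 41). Mouse 44 was the lowest of the study, and mouse 41 was above all 3 mice at 3 and at 10 μg/kg.

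The contractile and regulatory genes behaved alike. Myh11, the smooth muscle myosin heavy chain, had 21.9, 27.1 and 42.5 CPM in vehicle, 51.4, 56.3 and 138 CPM at 3 μg/kg, 70.7, 78.2 and 118 CPM at 10 μg/kg and 45.7, 135 and 335 CPM at 30 μg/kg. At 1 μg/kg its values were 7.15, 13 and 132 CPM, and at 0.3 μg/kg they were 41.7, 66.9 and 163 CPM. The highest mouse at 0.3 μg/kg was thus above 8 of the 9 mice at 3 to 30 μg/kg. Cnn1 (calponin, which binds actin and restrains the myosin ATPase) ran from 1.57 to 6.00 CPM in vehicle and from 5.77 to 34 CPM at 30 μg/kg, and Tagln (transgelin, an actin-binding protein) from 4.02 to 8.36 and from 7.19 to 46.9 CPM. Lmod1, a leiomodin that nucleates actin filaments, was the scarcest of the 10 genes per kilobase of exon (0.415 CPM in vehicle), at 0.883 to 2.66 CPM in vehicle and 3.01 to 10.7 CPM at 30 μg/kg.

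Mylk, the myosin light chain kinase that starts smooth muscle contraction, stood apart from the other contractile genes. Its highest mouse was only 2.54-fold above its lowest (78.6 to 199 CPM), against 21.1-fold for Tagln and 105-fold for Actg2. It had 79.3, 104 and 121 CPM in vehicle and 110, 119 and 199 CPM at 30 μg/kg, and its level per kilobase in vehicle, 9.01 CPM, was above that of every other member. The gene also gives non-muscle forms of the kinase, which gene counts do not separate. The intermediate filament genes went with the contractile genes: Des (desmin) had 5.10, 6.75 and 10.8 CPM in vehicle and 11, 36.6 and 80.3 CPM at 30 μg/kg, and Synm (synemin, a partner of desmin) had 2.36, 3.06 and 5.41 CPM and then 3.35, 14.5 and 32.1 CPM.

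None of the 9 smooth muscle genes was called at 0.01 to 3 μg/kg (edgeR, adjusted p from 0.378 for Mylk to 0.569 for Cnn1 at 3 μg/kg), none had an unadjusted p under 0.05 there, and DESeq2 called 0 as well. Their median log2 fold change over vehicle was 1.14, 1.12, 0.572 and 1.35 at 0.01, 0.03, 0.1 and 0.3 μg/kg and 0.775 and 1.15 at 1 and 3 μg/kg, against a median between -0.00951 and 0.0071 over all genes tested. The value at 0.01 μg/kg was therefore about as large as that at 3 μg/kg. At 3 μg/kg, 5 of the 9 genes (Acta2, Actg2, Myh11, Tagln and Mylk) had every mouse above every vehicle-treated mouse, as did 13.1% of all genes. The median at 1 μg/kg rested on mouse 41, without which it was -1.61. With the index set as a term, the median of the 9 genes at 3 μg/kg was above the log2 fold change of Acta1, as given below. In that fit only the mice at 1 μg/kg tie the sets together.

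In these genes the vehicle group had a lower mean than every other group except that at 1 μg/kg. The size of the difference at 3 μg/kg depended on the reference group. The mean log2 CPM of the 9 genes, called here the smooth muscle mean, was 2.96 ± 0.484 (SD, n = 3) in vehicle. At 0.01, 0.03, 0.1 and 0.3 μg/kg it was 3.93 ± 1.02, 3.79 ± 0.924, 3.40 ± 0.951 and 4.15 ± 0.841 in turn. At 1, 3, 10 and 30 μg/kg it was 2.78 ± 1.99, 4.05 ± 0.615, 4.54 ± 0.336 and 4.81 ± 1.21. Against the 12 mice at 0.01 to 0.3 μg/kg, the median log2 fold change of the 9 genes at 3 μg/kg was 0.11 in place of 1.15, and none of the 9 was called (adjusted p from 0.677 to 0.999). In the exact permutation test, the smooth muscle mean at 3 μg/kg was 0.235 higher than in those 12 mice (p = 0.69, two-sided), a value that does not show the groups to be alike.

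At 10 and 30 μg/kg, doses used to choose the genes, the 9 genes had median log2 fold changes over vehicle of 1.77 and 2.20. At 30 μg/kg the values ran from 0.49 (SE 0.228) for Mylk and 1.88 (SE 0.685) for Lmod1 to 2.79 (SE 1.03) for Actg2. Against the 12 mice at 0.01 to 0.3 μg/kg, the medians were 0.59 and 1.17, while Acta1 kept 3.67 and 4.76. Every mouse at 30 μg/kg lay above every vehicle-treated mouse for 5 of the 9 genes (Acta2, Actg2, Myh11, Des and Lmod1), as it did for 14.5% of all genes.

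The distance between Acta1 and the smooth muscle mean was compared mouse by mouse. Acta1 minus the smooth muscle mean was -1.0 ± 0.912 log2 units in vehicle and had group means between -1.76 and -0.732 at 0.01 to 0.3 μg/kg. At 1, 3, 10 and 30 μg/kg it was 0.0468 ± 1.89, 0.143 ± 0.75, 1.5 ± 0.348 and 2.32 ± 1.32. The groups at 1 and 3 μg/kg overlapped, with -2.04 (mouse 41), 0.55 (mouse 43) and 1.63 (mouse 44) at 1 μg/kg and -0.71 to 0.68 at 3 μg/kg. At 3 μg/kg this difference was 1.56 log2 units above that of the 12 mice at 0.01 to 0.3 μg/kg (exact permutation test, p = 0.0176, two-sided), with 2 of the 3 mice above all 12. Those 3 mice were in the second index set and the 12 in the first, so this test cannot tell dose from set. Within the second set, the values at 1 μg/kg (0.55 and 1.63) overlapped those at 3 μg/kg (-0.71 to 0.68). At 30 μg/kg, mouse 66 had the highest Acta1 of all 27 mice (162 CPM) and, counted from the lowest, ranked 11 of 27 in the smooth muscle mean. Mouse 67 had the highest smooth muscle mean and also the second-highest Acta1 (147 CPM). At 1 μg/kg, mice 43 and 44 had the 2 lowest smooth muscle means of the study and ranked 11 and 16 of 27 in Acta1, counted from the lowest.

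**Figure D2:**
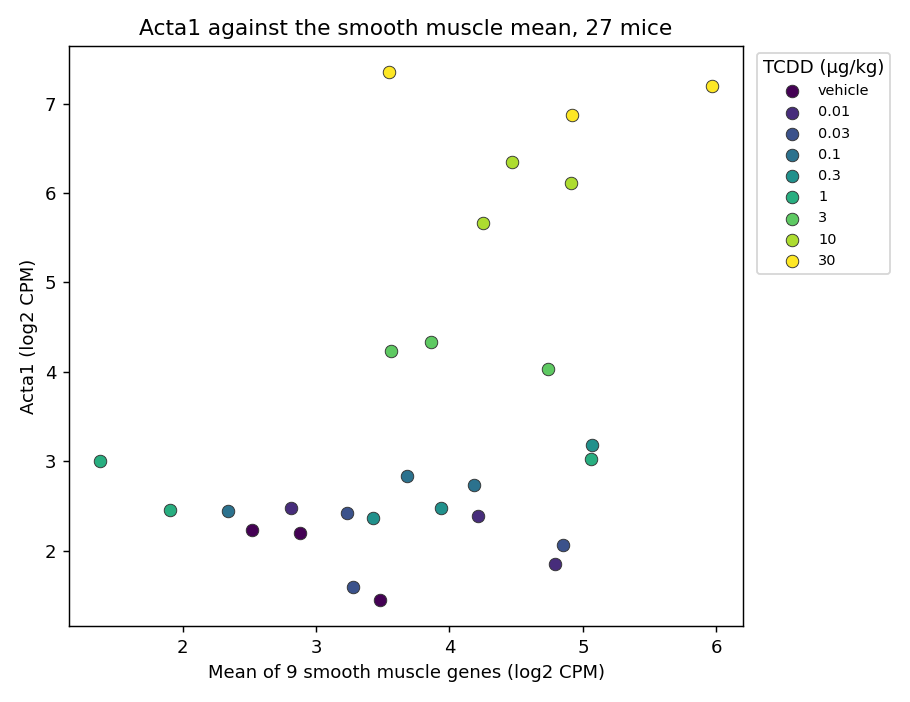
Log2 CPM of Acta1 (vertical axis) against the mean log2 CPM of the 9 smooth muscle genes (horizontal axis) in 27 mice, with 1 point per mouse coloured by dose (μg/kg). Mice from vehicle to 1 μg/kg lay between 1.45 and 3.18 in Acta1 across smooth muscle means from 1.38 to 5.07, and the mice at 3, 10 and 30 μg/kg lay in 3 separate bands above them.

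The share of the variance between mice that lay between dose groups was also computed. For Acta1 it was 97.6% of the variance of log2 CPM, with an SD within dose groups of 0.339. For the smooth muscle mean it was 36.4% with an SD of 1.04, close to the median of 38.0% over all genes tested. Among the 9 genes it ran from 28.8% for Mylk to 39.0% for Acta2. The value of Acta1 is a description, since its dose course chose it.

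Within dose groups, the smooth muscle genes moved together from mouse to mouse and no relation of Acta1 to their mean was detected, which does not show that there is none. Each gene was compared, as deviations from its dose-group mean in 27 mice, with the mean of the smooth muscle genes other than itself, and p-values came from 100000 permutations within dose groups, adjusted over the 10 relations. For Acta1, Pearson's r was 0.0602 (p = 0.8, adjusted p = 0.8) and Spearman's rho was -0.0354 (p = 0.879, adjusted p = 0.879). Leaving out the 2 mice with the most extreme smooth muscle deviations gave r = 0.0371, and it was 0.127 in the 16 mice of the first index set and -0.121 in the 11 mice of the second. Leaving out 1 mouse at a time gave r from -0.0584 to 0.152.

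For the 8 genes other than Mylk, r lay between 0.930 (Lmod1) and 0.990 (Myh11), with adjusted p between 1.43e-05 and 2.5e-05 where 1e-05 is the smallest raw p these permutations can give. Their rho lay between 0.909 and 0.993, and r between 0.910 and 0.985 without the 2 farthest mice. Within the first index set r was 0.962 to 0.995 for these genes, and within the second 0.865 to 0.993. Among the 28 pairs of these 8 genes, r of the deviations ran from 0.843 to 0.981 (median 0.957). Mylk had r = 0.497 and rho = 0.563 with the mean of the others (adjusted p = 0.0195 and 0.0156), with r of 0.492 and 0.512 within the sets.
Acta1 against the single genes had r from -0.0566 (Lmod1) to 0.106 (Actg2) for the same 8 genes. With Mylk it had r = 0.565, above the r of Mylk with the mean of the others. These pairwise values are descriptions without a test.

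**Figure D3:**
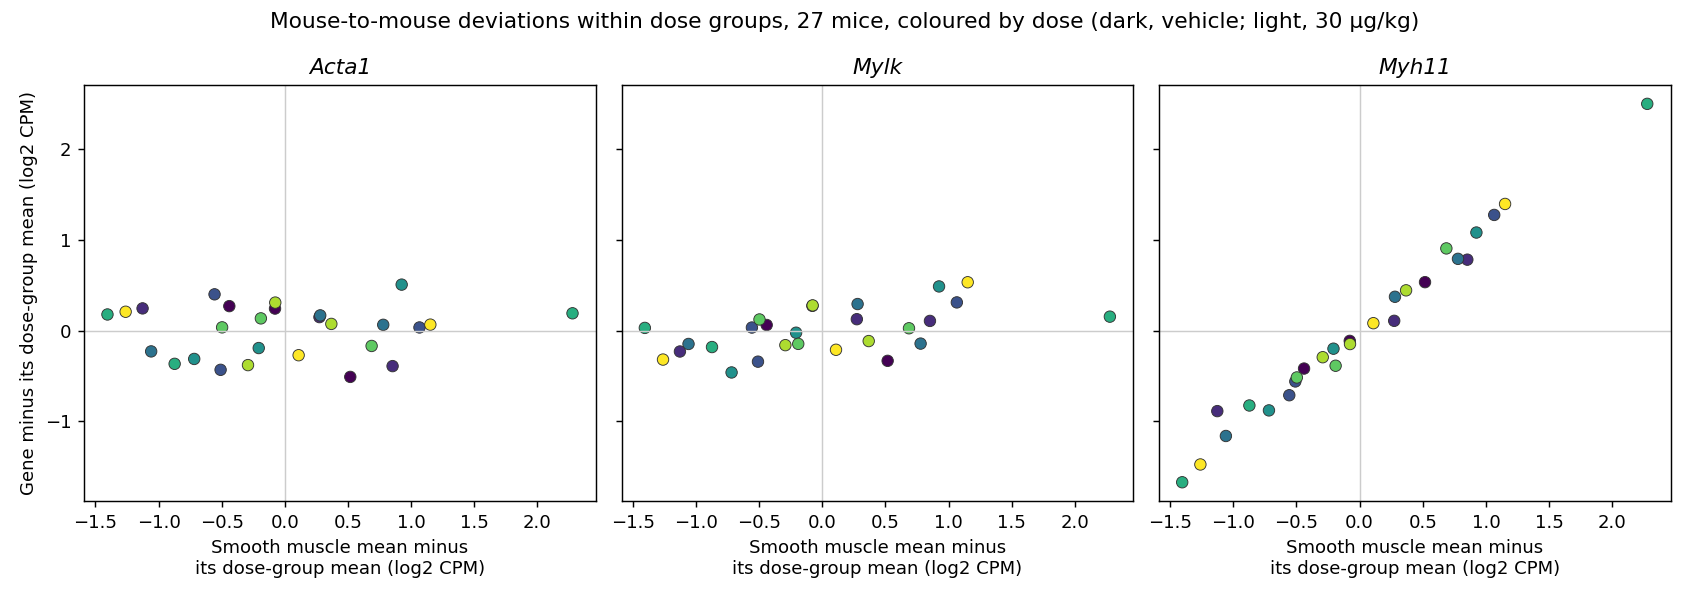
Deviation of Acta1, Mylk and Myh11 from their dose-group means (vertical axes, log2 CPM) against that of the mean of the 9 smooth muscle genes (horizontal axes) in 27 mice, coloured by dose. Myh11 followed the mean closely (r = 0.990 with the mean of the other genes), Mylk followed it loosely (r = 0.497), and Acta1 lay flat across it (r = 0.0602).

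Across mice at the lower doses, without the groups at 10 and 30 μg/kg, the relation was also weak. In the 21 mice from vehicle to 3 μg/kg, log2 CPM of Acta1 and the smooth muscle mean had r = 0.17 (permutation p = 0.462) and rho = 0.192 (p = 0.404), and leaving out the 2 farthest mice gave r = 0.258. Because the mice at 3 μg/kg form a cluster of their own in Acta1, the relation was also computed in the 18 mice from vehicle to 1 μg/kg, a choice made after the data were seen, where r was 0.0404 (permutation p = 0.872) and rho 0.0815 (p = 0.746). In the 16 mice of the first index set r was 0.299 (permutation p = 0.26) and fell to -0.0913 without the 2 farthest mice. In the second set the doses form clusters, so no pooled r is given. Adjusted over these 3 relations, the p-values of r were 0.693, 0.872 and 0.693.

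Other genes were ranked by the likeness of their log2 CPM to Acta1 over the 27 mice, among 14493 genes with a mean of at least 1 CPM. The 5 most alike were Cyp1b1 (Pearson r = 0.968), Ahrr (0.961), Selenbp1 (0.958), Cyp1a1 (0.949) and Exoc3 (0.945), a ranking set by the dose course that chose Acta1. Cyp1a1 and Cyp1b1 encode cytochrome P450 enzymes and Ahrr the repressor of the receptor, all known targets of the AhR. Mean Cyp1b1 was 0.133 CPM in vehicle, 1.97 CPM at 3 μg/kg, 115 CPM at 10 μg/kg and 252 CPM at 30 μg/kg. Mean Selenbp1, which encodes a selenium-binding protein, was 440 CPM in vehicle and 1140 CPM at 30 μg/kg. By deviations within dose groups, the most alike were Tmem18, Gbe1, Fech, Gm37844 and Plpp2 (r from 0.781 to 0.805), none of which is a muscle gene by its known role. These are the highest of 14493 values from 27 mice and were not tested. The top of so long a ranking can reach such values without any relation. The genes most like the smooth muscle mean were Flna (r = 0.980), Myl9, Flnc, Pgm5 and Cald1 over the 27 mice, and Flna (0.983), Myl9, Tns1, Flnc and Pgm5 within dose groups. Flna and Flnc encode filamins, Myl9 a smooth muscle myosin light chain and Cald1 caldesmon.

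The AhR targets themselves are given as the comparison for the course of Acta1. Of 5 such genes, Cyp1a1 alone was called higher at 1 μg/kg, and Cyp1a1, Cyp1b1 and Ahrr were called higher at 3 and at 10 μg/kg. All 5, with Tiparp and Nqo1, were called higher at 30 μg/kg (edgeR, adjusted p between 2.74e-15 and 0.00929). Cyp1a1 had 0 to 0.0984 CPM in vehicle, 50.6 to 140 CPM at 3 μg/kg and 2070 to 2430 CPM at 30 μg/kg. Ahrr had 1.48 to 2.16 CPM in vehicle, 4.50 to 7.46 CPM at 3 μg/kg and 109 to 148 CPM at 30 μg/kg. The log2 fold change of Ahrr was 1.73 (SE 0.256) at 3 μg/kg, 5.21 (SE 0.231) at 10 μg/kg and 6.21 (SE 0.234) at 30 μg/kg, beside 2.25, 4.12 and 5.21 for Acta1. At 10 μg/kg 0.812% of all genes were called higher and 0.97% lower, and at 30 μg/kg 2.95% higher and 3.21% lower.

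Other muscle and actin genes were then examined by lists. Because higher levels of muscle and stroma genes at the highest doses were part of the choice, the lists of muscle genes and of cells of the gut wall are described without p-values at 10 and 30 μg/kg, by how many genes were past the threshold. Of 22 further smooth muscle contractile genes, 0 were called at 3 μg/kg (median 0.412, 20 of 22 higher), 0 were past the threshold at 10 μg/kg and 4 were above it at 30 μg/kg, namely Myl9 (log2 fold change 2.90, SE 0.785), Tpm2, Csrp1 and Cacna1c. The median of the 22 was 0.898 at 30 μg/kg, against -0.00224 for all genes. Tpm1, Vcl and Actn1, the genes of the list with the highest mean CPM and also expressed outside muscle, had log2 fold changes of 0.35, 0.13 and 0.29 and did not reach 1.5-fold. Myl9 had 2.36 to 4.82 CPM in vehicle and 6.52 to 48.5 CPM at 30 μg/kg. Without mouse 67, 0 of the 22 were past the threshold at 30 μg/kg and their median was 0.644, and the median of the 9 smooth muscle members was 1.56. Acta1 without that mouse had a log2 fold change of 5.19.

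The cytoplasmic actins were abundant and changed by less than 1.5-fold at every dose. At 1, 3 and 10 μg/kg the log2 fold changes were 0.396, 0.349 and 0.389 for Actb and 0.306, 0.251 and 0.295 for Actg1. Actb had 2880 to 3260 CPM in vehicle and 3500 to 4780 CPM at 30 μg/kg (log2 fold change 0.41, SE 0.122, adjusted p = 0.0336, under 1.5-fold), and Actg1 had 819 to 918 and 887 to 1090 CPM (log2 fold change 0.22, SE 0.117, adjusted p = 0.226). Actc1 had 0 to 4 reads in any mouse and Actbl2 had 0 in all. Of the 10 genes of SRF, its cofactors and smooth muscle transcription factors, 0 were past the threshold at 3, 10 or 30 μg/kg, and their median at 30 μg/kg was 0.103 (log2 fold change). Srf itself was at 39.8 to 42.8 CPM in vehicle and 38.8 to 43.4 CPM at 30 μg/kg, and the groups overlapped. Mrtfb, a cofactor of SRF and the gene of the list with the highest mean CPM, had a log2 fold change of 0.12, Gata6 of -0.12, and Tead1 of -0.49. Myocd, a cofactor of SRF in smooth muscle, Nkx2-3 and Foxf1, scarce genes named after their values were seen, had the largest changes of the list, at 2.24-fold (log2 fold change 1.17, SE 0.743), 2.21-fold (1.14, SE 0.459) and 1.91-fold (0.94, SE 0.353) over vehicle. Myocd had 0.59 to 0.949 CPM in vehicle and 0.585 to 3.02 CPM at 30 μg/kg, and the groups overlapped.

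Most of the other striated muscle genes listed were scarce or undetected. The list held 28 striated muscle genes other than Acta1, not all of which encode sarcomere proteins. Of these, 7 passed the filter on low counts, and 12 had no more than 3 reads in any mouse. Among the 12 were Myh4, Myl2, Pvalb, Myod1 and Myog with 0 reads in all 27 mice. Tnni1 (10.5 to 17.0 CPM at 30 μg/kg), Tnnt2 and Myh8 had the highest mean CPM of the 7. Tnnt2, a troponin T, fell by 1.15 at 3 μg/kg (log2, SE 0.264, adjusted p = 0.0296) and had a log2 fold change of -1.0 at 30 μg/kg (SE 0.261), where it was the 1 gene of the 7 past the threshold downward. At 3 μg/kg 0 of the 7 were called higher, and at 30 μg/kg 0 were past the threshold upward. The median log2 fold change of the 7 at 30 μg/kg was -0.486. The summed level of the list was 29.2 to 53.6 CPM in vehicle, 20.6 to 25.4 CPM at 3 μg/kg and 23.6 to 30.3 CPM at 30 μg/kg. Ckm, the muscle creatine kinase, named after its values were seen, reached 26 reads (2.24 CPM) in 1 mouse at 30 μg/kg and had 0 to 0.0982 CPM in vehicle.

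Many markers of the other cells of the gut wall were also higher at 30 μg/kg, and their part in the levels of the smooth muscle genes was not tested. Over all genes, 2.95% were above the threshold at this dose and 3.21% below it. Of 8 enteric neuron markers tested, of 11 listed, 6 were above it (Prph at a log2 fold change of 3.11, SE 0.855, and Nos1, Ret, Stmn2, Uchl1 and Vip), with a median of 2.47. Of the other two, Snap25 had a log2 fold change of 0.19 (SE 0.249) and Chat, named after its values were seen, of -0.96 (SE 0.461, 0.906 against 1.76 CPM). The summed level of the neuron list was 12.7 to 15.9 CPM in vehicle, 15.5 to 21.6 CPM at 3 μg/kg and 17.6 to 47.0 CPM at 30 μg/kg. Above the threshold were 4 of 7 endothelial markers (Cdh5 at 2.34, SE 0.391, and Plvap, Kdr and Vwf), 3 of 6 pericyte markers tested, of 7 listed (Cspg4 at 1.71, SE 0.252, Kcnj8, which had the largest change at 2.24, and Abcc9) and 3 of 6 adipocyte markers (Cfd at 3.03, SE 0.937, Fabp4 and Cidec). Pecam1, highest in mean CPM of the endothelial list, had a log2 fold change of 0.23 (SE 0.227) and was not past the threshold. Nor were Rgs5 and Pdgfrb, highest in mean CPM of the pericyte list, at 2.01 (SE 0.727) and 0.51 (SE 0.171). The summed endothelial level was 28.4 to 39.3 CPM in vehicle and 38.4 to 82.4 CPM at 30 μg/kg, and the summed pericyte level was 23.9 to 26.6 and 43.7 to 109 CPM. Of 8 fibroblast markers 1 was above the threshold (Dcn, 1.51), while Col3a1, Col1a2 and Col1a1, highest in mean CPM, had log2 fold changes of 0.11 to 0.26. In the other lists no gene was past the threshold at 30 μg/kg. The 3 mesothelial markers tested, of 5 listed, were all higher, with a median of 1.60 (Upk1b at 0.05, SE 0.463, Upk3b at 1.60, SE 0.633, and Msln at 2.23, SE 0.817). The 4 markers of interstitial cells of Cajal had a median of 0.312, with Ano1 at -0.03, Kit at 0.27 and Edn3 at 0.35. Etv1, the scarcest of the 4 and named after its values were seen, had the largest change at 0.65 (SE 0.338). The 10 epithelial markers had a median of 0.101, with Muc2 at -0.05, Car1 at -0.16 and Krt8 at 0.21. The 6 posterior Hox genes tested, of 8 listed, had a median of 0.0724, with Hoxb13 at 0.22, Hoxa13 at 0.05 and Hoxa10 at -0.19.

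Without mouse 67, which leaves 2 mice at 30 μg/kg, the genes above the threshold were fewer over all genes (288 in place of 486). They were also fewer in the neuron, endothelial, pericyte, adipocyte and fibroblast lists, while the epithelial list had 1 above the threshold in place of 0. Then 2 of the neuron markers (Ret and Stmn2), 1 of the endothelial markers (Cdh5), 2 of the pericyte markers (Kcnj8 and Cspg4) and 0 of the adipocyte and fibroblast markers were above it, and all 5 AhR targets remained called. The median log2 fold change went from 2.47 to 1.88 for the neuron markers, from 0.952 to 0.74 for the endothelial, from 1.65 to 1.03 for the pericyte and from 2.31 to 0.967 for the adipocyte markers. For the mesothelial markers it went from 1.6 (3 tested) to 2.07 (4 tested). The summed adipocyte level at 30 μg/kg ran from 25.1 to 202 CPM, against 6.89 to 27.3 CPM in vehicle. It was 62.1 to 133 CPM at 0.01 μg/kg, where, unlike at 30 μg/kg, every mouse was above vehicle. The median log2 fold change of the 6 markers at 0.01 μg/kg was 2.6 and 0 were called. At 3 μg/kg, 0 genes of the neuron, fibroblast, endothelial, pericyte, mesothelial, adipocyte and epithelial lists were called in either direction, where 0.303% of all genes were called higher and 0.394% lower. The median log2 fold change was 0.848 for the neuron markers (6 of 8 higher), 0.855 for the pericyte (6 of 6), 0.65 for the mesothelial (2 of 3), 0.52 for the adipocyte (6 of 6) and 0.378 for the endothelial markers (4 of 7). It was 0.215 for the epithelial and 0.13 for the fibroblast markers, beside 1.15 for the 9 smooth muscle genes and 2.25 for Acta1. At 10 μg/kg Ret, Cdh5 and Cspg4 were above the threshold and no other gene of these lists was past it.

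**Figure D4:**
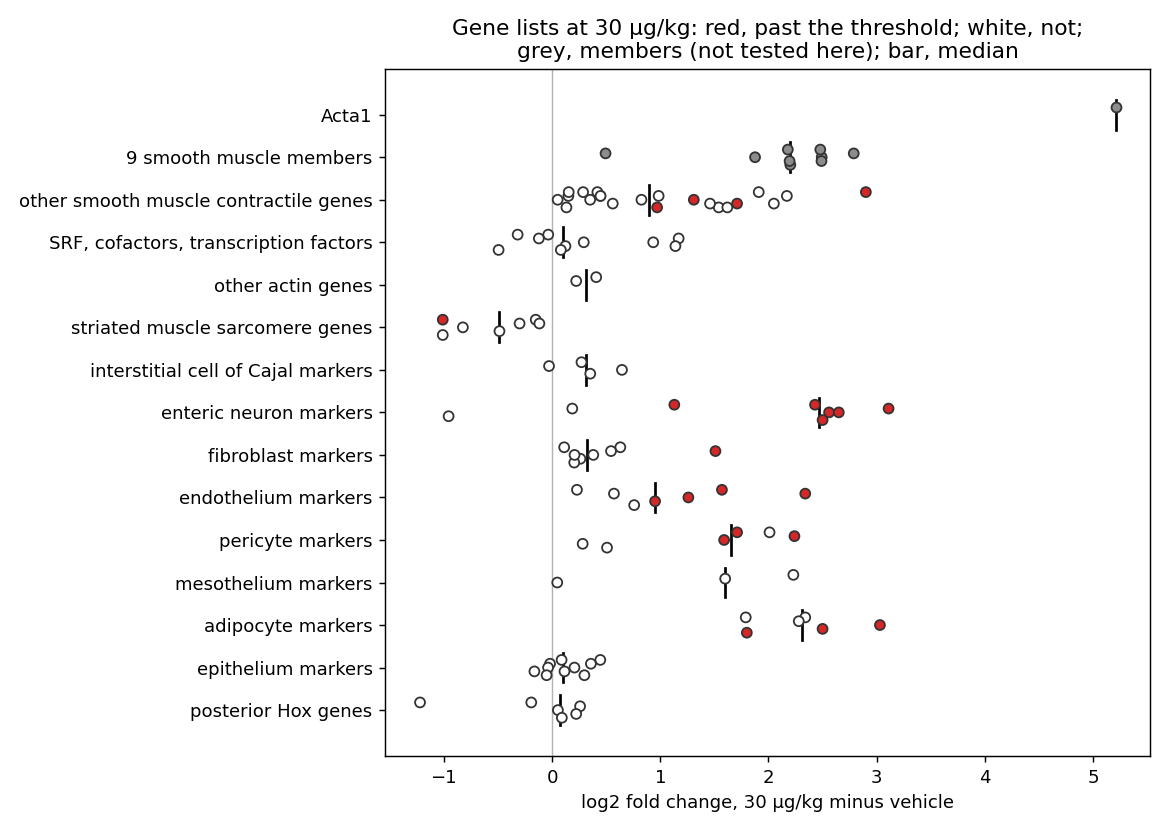
Log2 fold change at 30 μg/kg over vehicle (horizontal axis) for each tested gene, with 1 point per gene, by gene list, without the AhR targets: red points passed the threshold (for muscle and gut wall genes a description), white points did not, grey points are the members, for which no test is given, and bars mark medians. Acta1 lies at 5.21, beyond every other gene drawn, the 9 smooth muscle members have a median of 2.20 and the striated sarcomere genes lie below 0.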

How the data were processed

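For each mouse the authors deposited 1 table of raw counts (reads per gene, without normalization). The submitters' processing notes name FastQC 0.11.3, Trimmomatic 0.33, TopHat2 2.1.0, SAMtools 1.2.0, HTSeq 0.6.1, DESeq and GRCm38. The annotation release is not given in the sources used here. Doses are from the labels. Reads assigned to no feature (29.05 to 33.29% of a table) and the other rows without a gene were left out.

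Genes were kept by filterByExpr (minimum count 10) and fitted in edgeR 4.0.16 (R 4.3.3) with TMM factors and the quasi-likelihood test, all 27 mice in 1 fit, with Benjamini-Hochberg adjustment over 16496 genes. Log2 CPM used a prior count of 2. Permutation tests used scipy 1.17.1. No pair of mice of a group agreed within sampling noise (the lowest χ2 divided by its degrees of freedom was 5.83 among 27 pairs), and replicates are separate mice by their labels. The edgeR fit and the permutation test of relations were tested on simulated data.

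The members and gene lists were chosen with earlier results of these data known. From each list the 3 tested genes highest in mean CPM and the called gene with the largest change at 30 μg/kg were named, with all actins, all AhR targets, the 5 genes most like Acta1 and the 5 most like the smooth muscle mean. Other genes of the lists past the threshold, and Myocd, Nkx2-3, Foxf1, Etv1, Chat and Ckm, were named with their values already in view. Enteric glia markers are not reported here. Alternatives were RLE size factors, DESeq2 1.42.0, no filter, only the groups compared, an index set term, each mouse left out, a prior count of 0.5 and a first principal component. Alternatives chosen with the data in view were the reference of 12 mice at 0.01 to 0.3 μg/kg, the mice up to 1 μg/kg, the mean without Mylk, CArG boxes with 1 letter off and the lists without mouse 67.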

Additional observations from a re-analysis of the deposited data

How the results depend on the processing

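The log2 fold change of Acta1 at 3 μg/kg kept its direction under every alternative run and stayed called under all of them except the index set term, where it was 2.507 with an adjusted p of 0.0734 (edgeR). With that term the median log2 fold change of the 9 smooth muscle genes moved to 2.11, 4.804, 5.425 and 5.849 at 1, 3, 10 and 30 μg/kg. At 3 μg/kg it was thus above the 2.507 of Acta1, the reverse of the order without the term. By its construction that fit sets the shift between the sets from the 3 mice of the 1 μg/kg group alone. Leaving out 1 mouse at a time, the median at 1 μg/kg ran from -1.606 (without mouse 41) to 1.262. Against the 12 mice at 0.01 to 0.3 μg/kg, the median was 0.1095 at 3 and 0.5915 at 10 μg/kg, and Acta1 was 3.674 at 10 and 4.762 at 30 μg/kg; the cause was not tested. The log2 fold change of Acta1 at 0.03 μg/kg, 0.073 and not called, ran from -0.17 to 0.27 without 1 mouse. The correlation of Acta1 with the smooth muscle mean within dose groups was -0.0584 to 0.152 and that at the lower doses 0.0748 to 0.253 without 1 mouse. Over the other settings, the subsets of mice included, these ran from -0.121 (second index set) to 0.127 and from -0.0913 (first set without the 2 farthest mice) to 0.299 (first set). Over all genes, at 1 and 3 μg/kg, edgeR called 33 and 115 and DESeq2 called 73 and 197. Without mouse 67, 1 epithelial marker was above the threshold at 30 μg/kg in place of 0, and the other lists that changed are given above.

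The scarce genes had few reads in some mice. Lmod1 had 3 reads in its lowest mouse and Actg2 had 5, whereas Acta1 had at least 26. Reads alone did not order the SE at 3 μg/kg, which was 0.84 for Myh11 (at least 72 reads, SD within dose groups 1.15) and 0.261 for Acta1 (SD 0.339). No paired analysis was possible because the labels give every mouse a different number, shared with no other group.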
